A study of Drosophila melanogaster with 2 samples.

Results

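The 10 genes described here pattern the limbs of *Drosophila melanogaster* along the axis from body wall to tip: *wg*, *ds*, *fj*, *vg*, *sd*, *tsh*, *tio*, *rn*, *dac* and *Sp1*. They were chosen by name, for the known role of the transcription factor Zfh2 in proximal wing and leg, out of 18164 annotated genes. The data are peak calls from chromatin immunoprecipitation with sequencing (ChIP-seq) of Zfh2. The antibody was raised against green fluorescent protein, and the flies stably carried a transgene for Zfh2 with an enhanced green fluorescent protein (eGFP) at the C terminus. Material was whole embryos of both sexes pooled, 0 to 24 h old, in 1 group of 2 biological replicates, with chromatin sonicated to 200 to 800 bp. Every call therefore sums over all cells of the embryo and over all its stages, and fewer occupied cells cannot be told apart from less occupancy per cell. No group without the transgene was analysed here, so the only contrast is between replicates.

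In the larval wing disc Zfh2 is known as a nuclear protein of the hinge, the ring of tissue that joins the blade to the thorax. The blade is specified by Vg with its DNA-binding partner Sd. Wg, a secreted Wnt ligand, patterns both hinge and margin, and the zinc finger proteins Tsh and Tio mark more proximal cells. Ds and Fj belong to the Fat pathway of growth and planar polarity, whose components are graded along the limb. In the leg, Tsh marks proximal, Dac intermediate and Rn more distal tissue, and Sp1 promotes leg growth. These roles come mostly from imaginal discs, which grow in the larva, after the stages collected here.

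Of the 10 genes, 3 had a Zfh2 peak of the strict list in or near them, and 0 had one inside the gene body. The strict list was cut by the irreproducible discovery rate (IDR), a measure of how well replicates rank calls alike. Its members are the strongest calls of both replicates pooled, so a place in the list does not show agreement for that single call. It had a summit in the body or within 5 kb of 3 genes, *vg*, *ds* and *dac*. The same was true of 47.8% of all genes, and of 63.4% of the 4633 protein-coding genes at least as long as the shortest of the 10 (*fj*, 3551 bp). A long gene has a wider window, so the share among long genes is the closer background. All 5 IDR summits, 2 at *ds*, 2 at *dac* and 1 at *vg*, lay upstream of the gene. Of these, 0 lay within 500 bp of one of its transcription start sites (TSS). Neither position was counted over all IDR summits, so neither is read as particular to these genes. The relaxed list of both replicates pooled, which holds sites and background together, had a call at all 10 genes, against 87.9% of all genes and 96.3% of the long protein-coding ones. Calls of the replicates with summits within 200 bp of each other were found at 7 genes, against 72.7% and 88.1%. The genes without such a pair were *fj*, *tio* and *Sp1*. An IDR summit inside the body was found in 0 of the 10, against 9.75% of all genes and 25.7% of the long protein-coding ones. The count lies below both shares, and further below that of the long genes, the closer background. With 10 genes these counts are a description and were not tested.

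**Figure D1:**
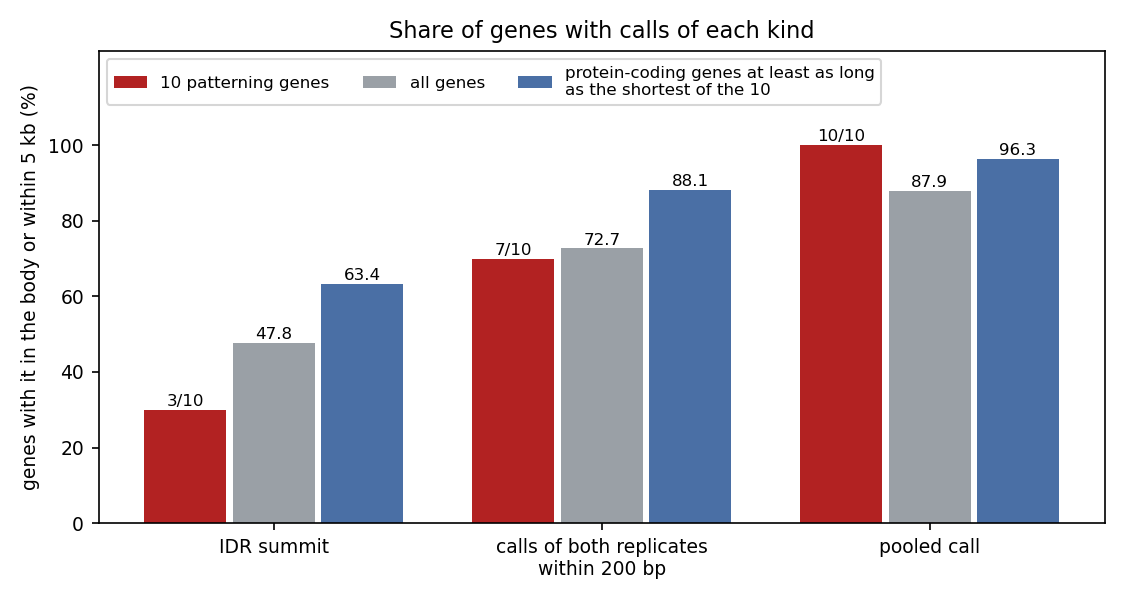
Share of genes (y axis, percent) with an IDR summit, with calls of both replicates within 200 bp, or with a pooled call, in the body or within 5 kb. Red bars are the 10 patterning genes with their counts, 3, 7 and 10, grey bars all genes and blue bars protein-coding genes at least as long as *fj*. The red bar is the lowest for IDR summits and for replicate pairs.

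Calls were also sparse by length. The windows of the 10 genes covered 324295 bp and held 28 pooled calls, 0.863 per 10 kb, where the main chromosome arms held 2.24 per 10 kb. Of the 28, *sd* alone had 11, and the other genes together had 0.584 per 10 kb. By gene the rate ran from 0.213 per 10 kb at *rn* to 3.30 at *sd*, the only one above the arms, with *dac* next at 2.03. IDR summits came to 1.54 per 100 kb in these windows and 3.24 per 100 kb on the arms. A call's strength is given below by its signal, a caller's score with no unit that ranks calls within a list only, and by its rank, where 1 is the strongest of 30000 pooled or replicate 1 calls or of 29690 replicate 2 calls. The pooled list runs from a signal of 15.6 to one of 2951 with a median of 24.1. The IDR list holds 4344 of these calls with the same signals, from 64.9 upwards, and no pooled call at or above that signal is missing from it.

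*wg* (FBgn0284084, 2L 7307159 to 7316265 in dm6, as for all positions here, plus strand) encodes the Wnt ligand Wingless. It had no call of any list in its body of 9107 bp. The 1 pooled call in its window had its summit at 7317554, 1289 bp past the 3′ end, with a signal of 36.6 and rank 8411. Both replicates had it, replicate 1 at signal 21.7 and rank 8983, and replicate 2 at signal 13.6 and rank 11623, with summits 7 bp apart. Replicate 1 alone had a weak call 109 bp upstream of the TSS (signal 12.1, rank 24185), and replicate 2 alone one 3943 bp past the 3′ end (10.01, rank 19292). The promoter was thus called in 1 replicate and the downstream position in both. The 101 bases around the downstream summit (2L 7317504 to 7317604, plus strand) are shown because this is the call at *wg* that both replicates share. Here and below, capitals mark TAAT or its complement ATTA, the short core that many homeodomains bind. This core was added after first results were seen. It is common, within 50 bp of 57.7% of all pooled summits and 69.9% of all IDR summits, and the stretch at *wg* holds none.
wg downstream call: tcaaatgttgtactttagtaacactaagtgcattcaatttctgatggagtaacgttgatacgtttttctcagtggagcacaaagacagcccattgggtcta

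*ds* (FBgn0284247, 2L 640013 to 714983, minus strand) encodes Dachsous, the large cadherin that binds Fat on neighbouring cells. It carried 2 IDR peaks, both intergenic and upstream. The proximal one had its summit at 715587, 604 bp upstream of the only annotated TSS of *ds*, with a pooled signal of 89.5 (rank 2923). Replicate 1 gave it a signal of 59.4 (rank 2286) and replicate 2 one of 29.4 (rank 4510). The distal one had its summit at 718698, 3715 bp upstream, with a pooled signal of 92.4 (rank 2789), 44.3 in replicate 1 (rank 3351) and 47.4 in replicate 2 (rank 2538). The replicates ordered the pair differently, with the proximal peak stronger in replicate 1 and the distal one in replicate 2. No other gene had a TSS nearer to either summit. Across its 74971 bp the body of *ds* had 0 pooled calls. Among 307 protein-coding genes of at least 50 kb, a bound set after the values were seen, 23 (7.49%) likewise had none in the body, and the median was 1.46 per 10 kb. The replicate lists had weak calls in the body, 3 in replicate 1 with signals from 11.1 to 15.3, 1 of them 146 bp past the TSS, and 2 in replicate 2 with signals of 9.35 and 12.3, and no pair of them lay within 200 bp. The 101 bases at the proximal (2L 715537 to 715637) and distal summit (2L 718648 to 718748) are given on the plus strand, opposite to *ds*, because these are the only IDR peaks here nearest to a TSS of their own gene besides 1 at *dac*. Each holds the core at 2 positions.
ds proximal peak: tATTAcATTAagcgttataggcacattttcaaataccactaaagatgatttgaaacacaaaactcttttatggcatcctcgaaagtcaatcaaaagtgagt
ds distal peak: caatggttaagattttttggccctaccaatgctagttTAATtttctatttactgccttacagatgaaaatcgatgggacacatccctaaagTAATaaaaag

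**Figure D2:**
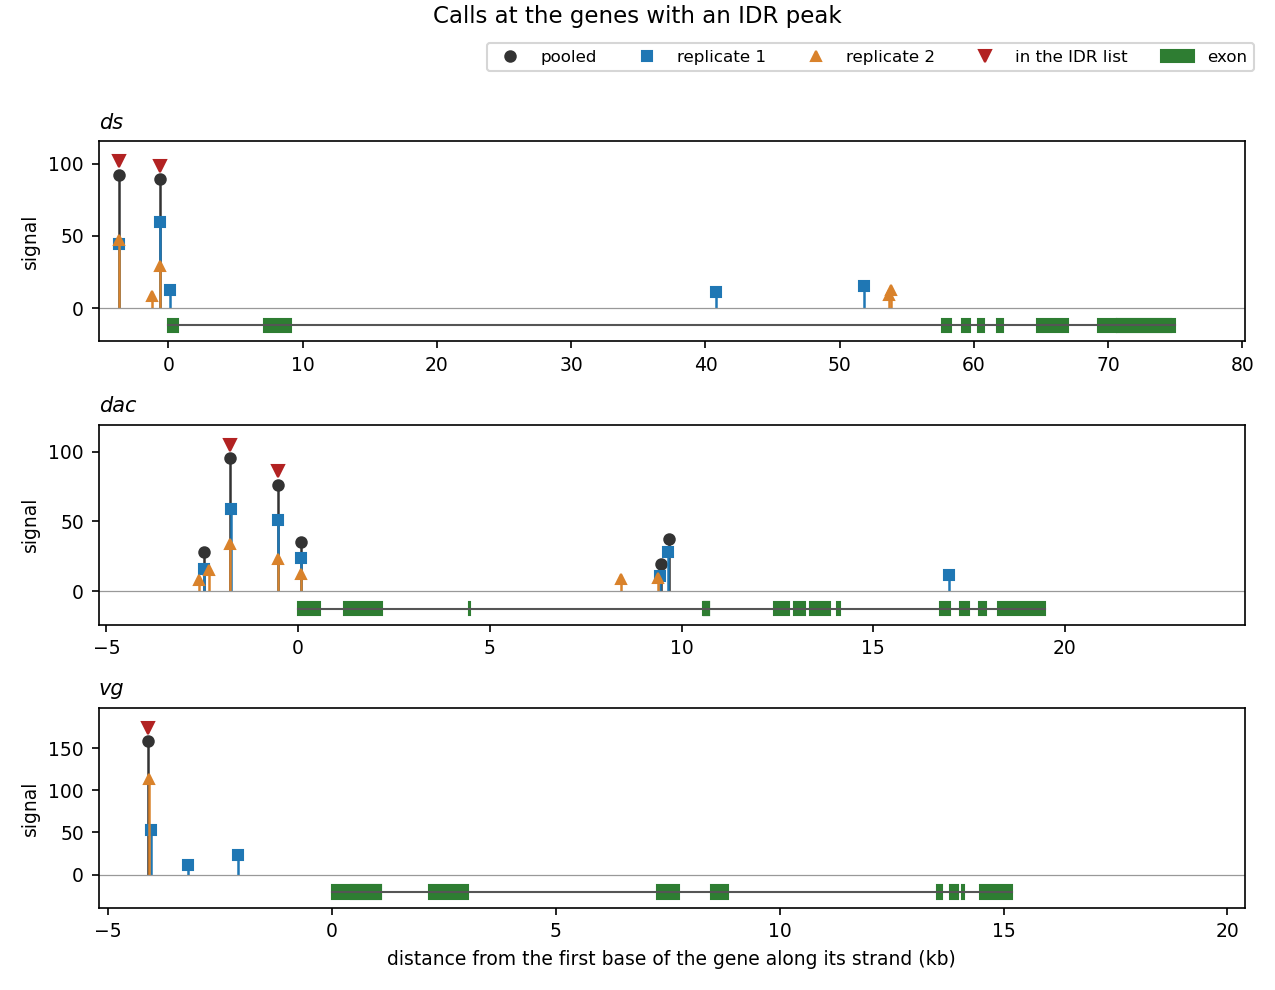
Calls at *ds*, *dac* and *vg* by distance from the first base of the gene along its strand (x axis, kb), with signal on the y axis (no unit; lists differ in scale, so heights compare only within a list). Circles are pooled calls, squares replicate 1, upward triangles replicate 2, red triangles mark calls in the IDR list, and green boxes are exons. All 5 IDR summits stand left of 0, and the 74971 bp of *ds* hold no pooled call.

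*fj* (FBgn0000658, 2R 18232761 to 18236311, plus strand) encodes Four-jointed, the Golgi kinase that phosphorylates cadherin domains of Fat and Ds. Unlike *ds*, it had weak calls only. The pooled list had 1 in its 5′ UTR, 558 bp past the TSS (summit 18233319, signal 20.3, rank 19868), and 1 in an exon of *lncRNA:CR45311*, 3607 bp upstream of *fj* (summit 18229154, signal 18.4, rank 23222). Both were called in replicate 1, at signals of 13.5 and 15.5, and neither had a replicate 2 summit within 200 bp. Replicate 2 had 1 call in the window, 2696 bp upstream (signal 10.01, rank 19299). The nearest IDR summit to *fj* was 40.9 kb away, 23 bp upstream of a TSS of *Ote*.

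*vg* (FBgn0003975, 2R 12884201 to 12899385, plus strand) encodes Vestigial, the cofactor that forms the wing selector complex with Sd. The strongest call of the 10 genes lay in its window, at summit 12880113, with a pooled signal of 158 and rank 1307. It stood 4088 bp upstream of *vg* and was a promoter peak of neighbouring genes, 117 bp downstream of a TSS of *Nmda1* in a region that also holds *AspRS*, which encodes aspartyl-tRNA synthetase. Replicate 1 had it at signal 53.2 (rank 2625) and replicate 2 at 113 (rank 641), and the summits were 53 bp apart. Replicate 1 had 2 more calls upstream, at 3198 and 2099 bp from *vg*, in coding exons, with signals of 11.7 and 23.0. No list had a call in the 15185 bp of *vg* itself, or within 500 bp of either of its 2 TSSs.

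**Figure D3:**
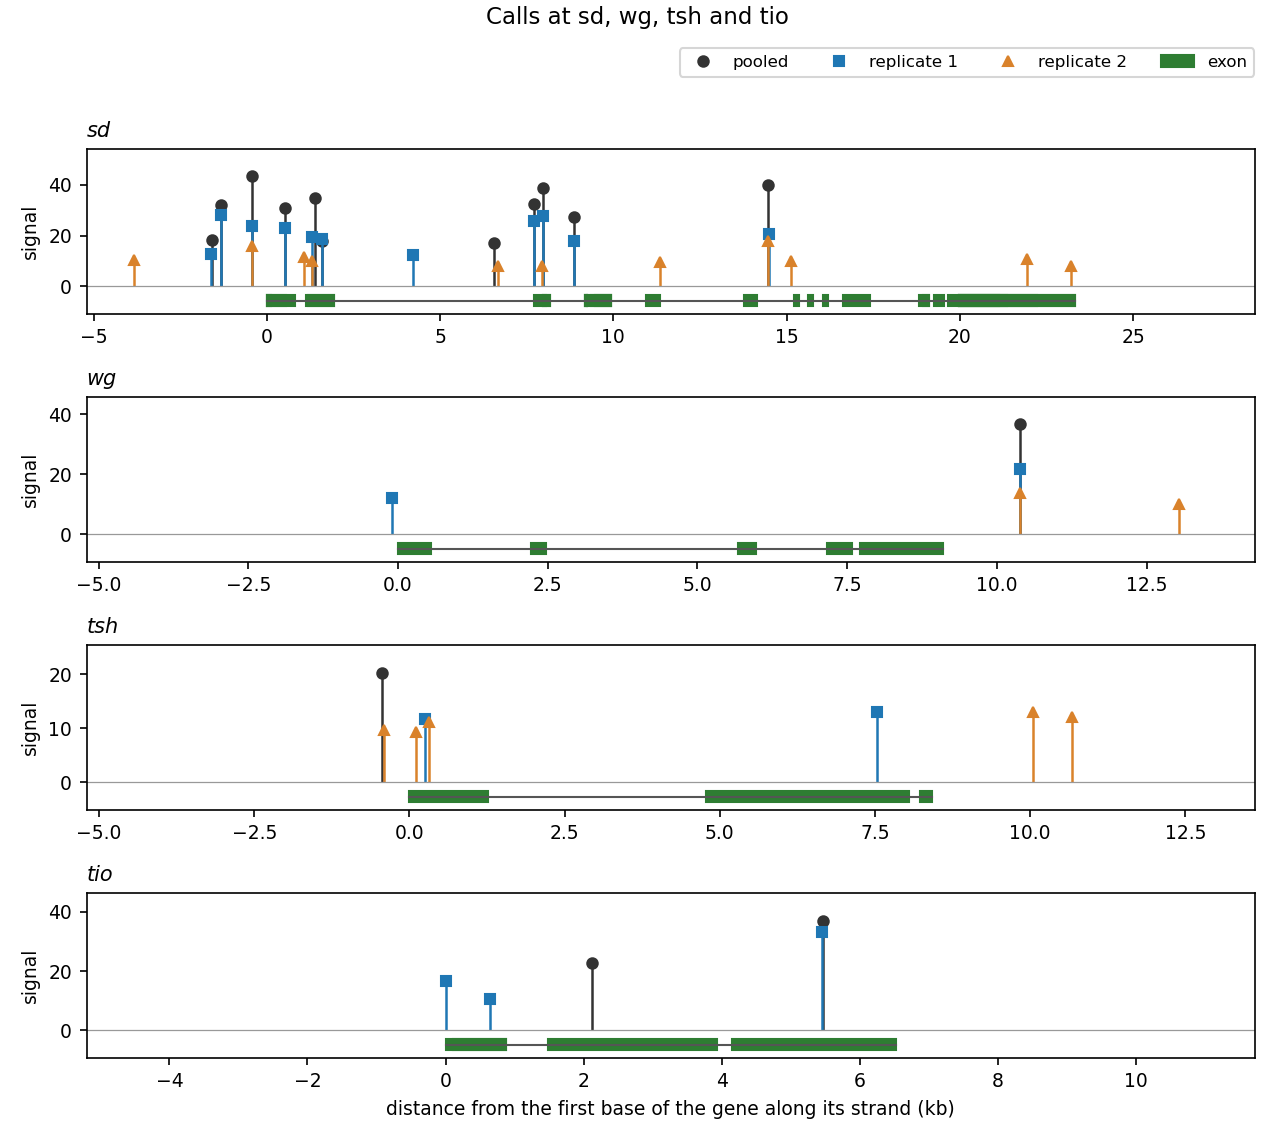
Calls at *sd*, *wg*, *tsh* and *tio* by distance from the first base of the gene along its strand (x axis, kb), with signal on the y axis (no unit; the lists and the panels differ in scale). Circles are pooled calls, squares replicate 1, triangles replicate 2, and green boxes are exons. The 11 pooled calls of *sd* lie from 1569 bp upstream to 14478 bp past its first base, the only pooled call of *wg* lies past its 3′ end, and *tio* has no replicate 2 call.

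*sd* (FBgn0003345, X 15804370 to 15827682, plus strand) encodes Scalloped, a TEAD family protein that binds DNA for Vg and for the Hippo pathway effector Yorkie. It had the most calls of the 10 genes, 11 in each of the pooled and replicate lists, and 0 IDR peaks. Some of these pooled calls overlap, as do those with summits at 15812078 and 15812337, so they are not all separate places. The pooled signals of *sd* ran from 17.3 to 43.4, all below the lowest IDR signal of 64.9. The highest, at summit 15803933 (43.4, rank 6917), lay between *sd* and *PGRP-LE*, a peptidoglycan receptor gene, 437 bp upstream of the first TSS of *sd* and 53 bp upstream of one of *PGRP-LE*. Replicate 1 had this call at 23.9 (rank 7755) and replicate 2 at 15.9 (rank 9289). The next, at summit 15818848 in an intron (40.0, rank 7561), lay 697 bp past the last TSS, at 20.8 in replicate 1 (rank 9639) and 17.7 in replicate 2 (rank 8127). Of the 7 TSSs of *sd*, 5 had a pooled call within 500 bp. At the TSSs at 15812094 and 15812327 the stronger pooled call, at 15812337, had a signal of 38.9, and it ranked 6270 in replicate 1 and 28244 in replicate 2. At the TSS at 15805507 the stronger had a signal of 34.9, with ranks of 10814 and 19743. Of the 11 pooled calls, 4 had a summit of both replicates within 200 bp. The paired calls at the internal promoters ranked far higher in replicate 1, and the ranks of the upstream and intronic calls lay closer together. The intronic stretch (X 15818798 to 15818898, plus strand) is printed as the strongest call in the body of *sd* that both replicates hold, and it has the core at 2 positions.
sd intronic call: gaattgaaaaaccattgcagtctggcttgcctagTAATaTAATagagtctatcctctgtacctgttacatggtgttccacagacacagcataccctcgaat

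*tsh* and *tio*, on the plus strand of 2L, are paralogs for zinc finger proteins that specify proximal identity. *tsh* (FBgn0003866, 21828593 to 21837011) had 1 pooled call, 446 bp upstream of its TSS (summit 21828147, signal 20.3, rank 19826). Replicate 2 had it at 9.67 (rank 20448), and replicate 1 did not. Just past the TSS, replicate 1 had a call at 21828847 (signal 11.7, rank 25545) and replicate 2 one 59 bp from it (11.1, rank 16189), and the pooled list had none there. *tsh* is thus counted among the 7 genes with a replicate pair on weak calls alone. *tio* (FBgn0028979, 22019208 to 22025734) had 2 pooled calls, in its coding sequence (22021336, signal 22.7, rank 16523) and its 3′ UTR (22024679, signal 37.0, rank 8299). Replicate 1 had the second at 33.2 and rank 4958, and replicate 2 had 0 calls in the window. Replicate 1 had a further call at 22019221 (16.5, rank 14199), 13 bp past a TSS that *tio* shares with *lncRNA:CR33987*, and 1 in the 5′ UTR (10.6, rank 29913). The nearest IDR summits were 30.5 kb from *tsh*, at *lncRNA:CR44917*, and 96.0 kb from *tio*, at *CG3651*, the farthest of the 10 genes.

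*rn* (FBgn0267337, 3R 7272617 to 7309629, minus strand) encodes Rotund, a zinc finger factor of the tarsal region of the leg and of the wing. In its 37013 bp there was 1 pooled call, at summit 7304925 (signal 33.2, rank 9420). It lay 2692 bp upstream of the nearest TSS of *rn* and 333 bp downstream of that of *CG42544*, a gene within *rn*. Replicate 1 gave it 23.1 (rank 8220) and replicate 2 10.6 (rank 17508), with summits 17 bp apart. None of the 3 TSSs of *rn* had a call within 500 bp in any list.

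*dac* (FBgn0005677, 2L 16466512 to 16485998, minus strand) encodes Dachshund, a nuclear protein that marks intermediate leg segments. With 6 pooled calls, 2 of them IDR peaks, it had the richest set after *sd*. The stronger IDR peak, at summit 16487761, had a pooled signal of 95.4 (rank 2688), 58.8 in replicate 1 (rank 2317) and 33.8 in replicate 2 (rank 3863). It lay 1763 bp upstream of *dac* and nearer to *Nepl8*, a neprilysin-like gene, 387 bp upstream of its TSS. The other, at 16486526, lay 528 bp upstream of the only TSS of *dac*, with a pooled signal of 76.3 (rank 3569), 51.2 in replicate 1 (rank 2761) and 23.3 in replicate 2 (rank 5923). Both peaks ranked higher in replicate 1. The promoter itself had a weaker pooled call 87 bp inside the gene (signal 35.3, rank 8779), at 23.5 in replicate 1 and 12.7 in replicate 2. An intronic pooled call 9673 bp from the TSS (signal 37.7, rank 8132) was in replicate 1 at 28.3 (rank 6131), and replicate 2 had none within 200 bp. A weaker pooled call 9457 bp from the TSS, which overlaps it, was in both. The 2 upstream stretches, 2L 16487711 to 16487811 near *Nepl8* and 2L 16486476 to 16486576 near *dac*, are shown on the plus strand as the IDR peaks of the locus. Neither holds the core, which 69.9% of all IDR peaks have. The one nearer to *dac* is 56.4% GC against 36.6% for the other.
dac peak near Nepl8: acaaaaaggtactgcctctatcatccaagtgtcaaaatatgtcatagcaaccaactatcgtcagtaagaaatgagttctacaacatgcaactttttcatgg
dac proximal peak: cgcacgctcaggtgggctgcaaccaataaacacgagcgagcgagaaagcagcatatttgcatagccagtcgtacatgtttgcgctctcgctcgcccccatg

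*Sp1* (FBgn0020378, X 9729648 to 9756369, plus strand) encodes an Sp family zinc finger factor. It had 1 pooled call, in an intron 16037 bp past the TSS (summit 9745685, signal 20.6, rank 19374). Replicate 2 had it at 8.00 (rank 27630), near the end of its list, and replicate 1 had 0 calls in the window. The nearest IDR summit was 22.3 kb away, 55 bp upstream of a TSS of *CG1354*.

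The genes thus fell into 3 tiers by the strongest pooled call: *vg*, *dac* and *ds* from 92.4 to 158, then *sd*, *tio*, *wg* and *rn* from 33.2 to 43.4, and *Sp1*, *tsh* and *fj* from 20.3 to 20.6. Signals within each of the 2 lower tiers lie close together, and no order is read from them. The strongest calls of *vg*, *dac*, *sd* and *rn* were nearest to a TSS of another gene, *Nmda1*, *Nepl8*, *PGRP-LE* and *CG42544* in that order. The strongest call nearest to the TSS of *dac* had a signal of 76.3, and *vg* had no call in its body. The replicates held the same places in part. Of the 28 pooled calls, 14 (50%) had a summit of both replicates within 200 bp, against 45.1% of all pooled calls. A further 10 were in replicate 1 alone (35.7%, against 28.6%), 3 in replicate 2 alone (10.7%, against 19.3%) and 1 in neither. The match set no limit on strength, so some matches are weak. Over the 14 calls in both, −log10 of the caller's q-value ran from 0.145 to 3.92 in replicate 1. In replicate 2 it ran from 0.0326 to 3.95. Of the 10 in replicate 1 alone, 6 were at *sd*, and without *sd* it was 4 of 17 (23.5%), below the share of all calls. All 5 IDR peaks were in both. That list holds every pooled call from a signal of 64.9 upwards, so membership follows pooled strength. The share over all IDR peaks was not counted, so this is not read as particular to these genes. Of the 23 other pooled calls, 9 were in both, and the share over all such calls was not counted. Among the 14 calls in both, 10 ranked higher in replicate 1 by the nearest summit of each replicate, where this was 49.0% over all such calls. By the strongest summit within 200 bp it was again 10 of 14, against 48.5%, but not the same 10. The *dac* call at 16488460 then ranked higher in replicate 2 (9791, against 15579). The *dac* call at 16476541 then ranked higher in replicate 1 (6131, against 20198). By the nearest summit the exceptions were the *vg* window peak, the distal *ds* peak, and an intronic call each at *sd* and *dac*. With 1 library on each side this difference between the replicates was not tested.

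**Figure D4:**
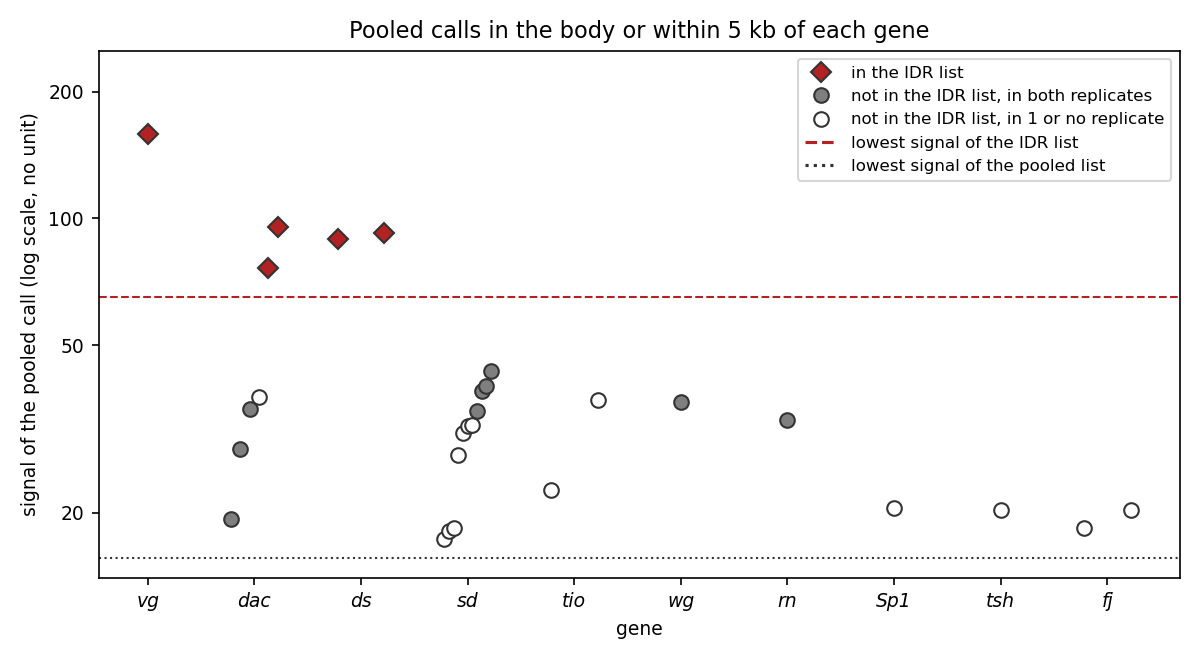
Signal of each pooled call (y axis, log scale, no unit) by gene (x axis), ordered by the strongest call. Red diamonds are in the IDR list, filled circles are other calls found in both replicates, and open circles are calls in 1 or no replicate. The dashed line is the lowest IDR signal, 64.9, and the dotted line the lowest pooled signal, 15.6. The 5 IDR peaks stand apart, with the next call at 43.4.

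By position, 16 of the 28 pooled calls lay in the bodies, 11 upstream and 1 downstream. This split, and the counts by a gene's own TSS below, were not made over all pooled calls. Within 500 bp of some TSS lay 14 (50%, against 32.8% of all pooled calls), and 4 lay in introns (14.3%, against 37.7%). Of the 14, 8 were in the *sd* window, and without *sd* the share was 6 of 17 (35.3%), close to that of all calls. Only 8 were within 500 bp of a TSS of the gene itself, of which 6 belonged to *sd* and 1 each to *tsh* and *dac*. For 20 of the 28 the nearest TSS was the gene's own. The other 8 pooled calls were nearest to a neighbour, among them the IDR peaks at *Nmda1* and *Nepl8*. When each IDR peak was given to the gene of the nearest TSS, 2 of the 10 genes kept one, *ds* and *dac*. By the same assignment 18.2% of all genes and 35.2% of the long protein-coding ones had one. The 10 genes were thus near the share of all genes and below that of the long ones, the closer background. With 10 genes this was not tested.

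Around the 5 kb bound, the innermost and outermost values were these. The *vg* peak entered at 4088 bp. The first IDR summit left out was one 5430 bp from *dac*, 112 bp upstream of *Tpr2* (signal 71.7), and the next was 13.99 kb from *vg*, 38 bp upstream of *bic*. For *wg* the nearest was 17.0 kb away, 419 bp upstream of *Wnt6*, another Wnt gene (signal 114). For *sd* it was 16.7 kb away at *CG8578* (158), and for *rn* 22.9 kb away at *CG1227* (171). The median distance from body to nearest IDR summit was 19.7 kb over the 10 genes, 5.63 kb over all genes and 1.48 kb over the long protein-coding ones.

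Known words were about as frequent at these calls as at all pooled calls, at 4 of 28 (14.3%) against 11.2%. Within 50 bp of the summit, on either strand, TAATTA (a core of many homeodomains) and TTAATTAA, which contains it, were at 0 of the 28 pooled calls, where they were at 5.47% and 0.897% of all pooled calls. CAGGTAG, the word of Zelda, was at 0 of 28 (0.497% of all). GAGAGAG, of GAGA factor, was at the 3′ UTR call of *tio* (1.62% of all). TATCGATA, the element bound by Dref, was at 1 call, 74 bp upstream of 1 of the TSSs of *PGRP-LE* in the *sd* window (1.51% of all). The repeat CACACACA was at 2, at *fj* and at the *dac* promoter (2.39% of all). None of the 5 IDR peaks held any of the 6 words, where 13.4% of all IDR peaks did. With 100 bp on each side, 2 of the 5 held GAGAGAG, against 3.04% of all IDR peaks, and TAATTA was at 2 of the 28 pooled calls, against 11.2% of all pooled calls. TAAT, a shorter core added after these results were seen, was at 16 of 28 (57.1%), against 57.7% of all pooled calls, and at 3 of the 5 IDR peaks, against 69.9% of all IDR peaks. A missing word says only that these letters are not in the window. The median GC content of the windows was 41.1% at the 28 calls and 43.6% over all pooled calls.

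Other genes of the same processes were counted in windows of the same margin, beside 47.8% of all genes and 63.4% of the long protein-coding ones. Some listed genes are shorter than *fj*, so the second share is not matched to them. The share with an IDR summit was below both in each of 3 lists of limb transcription factors (40.0%, 23.1% and 28.6%). It was above both among Wnt (80.0%) and Fat, Dachsous and Hippo pathway genes (92.3%). Among proximal leg and hinge factors 4 of 10 had an IDR summit. The stronger were *bowl* (signal 228, 224 bp upstream of its TSS) and *hth* (120, in the gene body, 49840 bp from its nearest TSS). The weaker were *zfh2* itself (82.2, 3941 bp upstream) and *sob* (77.03, nearest to a noncoding gene). Among distal limb factors it was 3 of 13. These were *bab2* (88.5, outside the body, 37617 bp from its nearest TSS), *dysf* (81.3, 711 bp upstream) and *bab1* (77.7, nearest to *CG9205*). The others, *Dll*, *al*, *C15*, *B-H1*, *B-H2*, *ss*, *btd*, *elB*, *noc* and *tap*, had 0. Among wing body factors it was 4 of 14. They were *tup* (337, at *CG10602*), *bi* (101, 19107 bp from its nearest TSS), *Doc1* (92.5, nearest to *Argk2*) and *Doc2* (68.6, 4497 bp upstream). Of Wnt ligands, receptors and effectors 12 of 15 had one, and the strongest were in the windows of *dsh* (322), *pan* (216), *fz3* (190) and *arr* (166), the co-receptor. All 4 of these summits were nearest to a TSS of another gene, *CG1737*, *RpS3A*, *lncRNA:CR44966* and *CG43192* in that order. Of Fat, Dachsous and Hippo pathway genes 12 of 13 had one, led by *hpo* (389, 56 bp upstream of its TSS), *Mer* (226, 59 bp downstream of its TSS), *yki* (218, at *Gpat4*) and *app* (210, 197 bp upstream). The strongest summit was nearest to the listed gene's own TSS for 3 of 4 proximal, 2 of 3 distal and 2 of 4 wing body factors with one, and for 4 of 12 Wnt and 7 of 12 Fat, Dachsous and Hippo genes. With each IDR peak given to the gene of the nearest TSS, the shares were 30.0%, 23.1% and 21.4% for the 3 factor lists. They were 46.7% for the Wnt list and 53.8% for the Fat, Dachsous and Hippo list. The share was 18.2% of all genes and 35.2% of the long protein-coding ones. By this count the factor lists were above the share of all genes, though below it by window. By both counts they were below that of the long genes. Of the 2 Fat pathway genes among the 10, *ds* had a peak and *fj* did not. The lists differ in gene length and in gene density around them, and their difference was not tested.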

How the data were processed

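Peak lists of zfh2-eGFP embryos were analysed, 4 on dm6: 2 replicates, both pooled, and the IDR list, which was derived from the other 3 per the deposited file descriptions. Column 7 of each deposited list is a caller's signal, a score with no fixed scale. Column 9 of the deposited lists is −log10 of a q-value, constant in the IDR list, and was not used to rank. Calls were made against a control, per the deposited file descriptions. The sources used here do not give the aligner, the caller or the thresholds. Depth is unknown. The dm3 lists were not used here.

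Genes and TSSs came from Ensembl release 115, without transposable elements, on the 6 main arms. Sequence came from the RefSeq assembly, whose arms are at least as long as the highest call. Coordinates are 1-based dm6. A summit within 5 kb of a gene body counted for that gene, and one within 500 bp of a TSS as a promoter summit. A pooled call was in a replicate when a summit of it lay within 200 bp, and took the signal and rank of the nearest. Calls that overlap were each counted. Words were sought 50 bp to each side. Counting was done in Python 3.11.15 with pandas 2.3.3 and tested on simulated summits. No test between groups was possible with 1 group.

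The genes, lists and words were chosen with earlier results of these data known. All 10 genes are named. Of each related list up to 4 genes with an IDR peak are named by signal. Genes with none are named for the distal limb list only, a choice made after values were seen. *d* and *WntD* were matched as *dachs* and *wntD*. Alternatives varied the margin, the match distance, the strength of the calls and the word window.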

Additional observations from a re-analysis of the deposited data

How the results depend on the processing

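The count of 3 genes with an IDR peak was 0 with bodies alone and 1 with only the IDR calls above that list's median signal, and from 2 to 3 with margins of 1 and 10 kb, interval overlap or the nearest TSS. With the strongest calls of 1 replicate in place of the IDR list, as many as IDR peaks, it was 3 for either replicate. The 7 genes with a call in both replicates became 4 with bodies alone and 3 with the strongest calls of each, as many as IDR peaks, and stayed from 5 to 7 under the other settings. The 28 pooled calls became 16 with bodies alone and 45 with a margin of 10 kb, and 34 to 36 when the list of 1 replicate was used. The median of the strongest pooled signal per gene was 36.8, and 35.1 with a margin of 1 kb. With that margin the strongest signal of *dac* went from 95.4 to 76.3, and *wg* and *vg* had no call left. The 4 calls with a word became 0 with 25 bp and 9 with 100 bp on each side, and 16 for TAAT, a word added after seeing the data. No paired analysis was possible because there was 1 group. Relaxed lists hold background, and with unknown depth a missing call does not show absence of binding.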
